A study of Mus musculus with 4 samples.

Results

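The genes described here are 35 mouse genes of the RAS-MAPK pathway, chosen by name: kinases of the cascade, the immediate early transcription factors it switches on, and the feedback inhibitors that damp it. The rule kept those with a base mean in the deposited table (counts over size factors, averaged over libraries), which left 34 of the 12578 genes with values. Fos, the founding AP-1 gene, is listed without values and is not among them. Expression was measured by mRNA sequencing in MC38/gp100, a mouse line derived from the colon carcinoma MC38 and named for gp100, an antigen of melanocytes. The control group was kept in DMSO, the solvent, and the treated group in GSK3368712 at 1 µM, which blocks the type I class of protein arginine methyltransferases, both for 5 days with 2 libraries each. All 4 libraries share the line and the serum-containing medium, and the labels name no acute stimulus and do not say whether a group's libraries are from separate cultures. The p-values therefore rest on the spread between these libraries, mostly that common to all genes, which may be technical. Libraries are called DMSO A and B and inhibitor A and B after the letters of the table's columns.

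In this pathway a growth factor receptor loads RAS with GTP, and the signal then passes through the kinases RAF, MEK and ERK. Active ERK phosphorylates transcription factors already present in the nucleus, many of them bound with serum response factor (SRF) at a promoter element called the CArG box. Immediate early genes are transcribed within minutes and without new protein synthesis. Their products include the EGR and AP-1 transcription factors. Feedback inhibitors, the DUSP phosphatases and the Sprouty and Spred proteins, turn the cascade down again. In colorectal tumours the cascade is often held active by mutations in RAS or RAF genes.

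Reads counted at genes with values totalled 1079637 to 1176472 in the libraries, and the median base mean was 22.6, so counting error was wide. Among the 20 most abundant genes by base mean, 18 have an exon that overlaps one on the opposite strand, and the mitochondrial gene mt-Nd6 was given 1709 to 2881 reads against 158 to 247 at mt-Co1, which is transcribed from the other strand. Which strand the reads were counted on is not stated. At a gene with an opposite-strand exon the source of the reads cannot be told apart, and at any gene a low value does not show that its transcript was rare. Such exons were annotated at 11 of the 34 members, or 32.4%, against 33.5% of all genes with values, and the neighbour is named beside the gene below. Of the epithelial markers, 4 of 6 had values and summed to between 22.0 and 26.7 normalised reads per library. Nearly all lay at Krt8, which shares 101 bp with Gm36026, while Epcam and Krt18 were listed without values. Fibroblast markers, 5 of 6 with values, summed to 994 and 1017 in DMSO and 1381 and 1210 with the inhibitor, most of it at Col1a1 and Col1a2. The markers did not move together. Col1a1 had means of 528 in DMSO and 714 with the inhibitor, and Col1a2 304 and 415. Pdgfra, of which 622 bp lie opposite Gm42802 and Gm42803, had 68.8 and 47.6. Of these 5 markers 0 were called and 3 had an unadjusted p under 0.05 (limma, adjusted p of at least 0.0556). Over all genes tested, 2.14% were called and 12.2% had such an unadjusted p. Leukocyte markers, 2 of 7 with values (Csf1r, opposite Hmgxb3, and Cd14; Ptprc listed without values), summed to 439 to 517, and endothelial markers, 2 of 3 with values, to at most 6.17. Pmel, which encodes gp100, was the 1 melanocyte marker of 4 with values, at 25.1 to 35.1 normalised reads. Of its exons, 139 bp lie opposite Cdk2 and Dgka. The part of these markers and of strand in the results below was not tested.

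Of the immediate early and feedback genes, Egr1 alone was called. The mean of the normalised reads counted there was 3.52-fold higher in DMSO than after 5 days of inhibitor. A gene was tested if its base mean reached 10, which 30 members did, and was called at a Benjamini-Hochberg adjusted p under 0.05 over all 8562 genes tested. Among members 0 were higher, 1 was lower and 29 were not called. The background share of calls was 2.14% of all genes tested, 1.3% higher and 0.841% lower. That split rested on single libraries: 111 genes were higher and 72 lower, against 68 and 76 without DMSO A, 178 and 55 without DMSO B, 42 and 21 without inhibitor A and 49 and 24 without inhibitor B. An adjusted p in the authors' deposited table is given for 19 members, and 0 of them passed (DESeq2, adjusted p of at least 0.9997), against 0.574% of the 4527 genes with such a value. In bulk RNA, fewer cells of one kind and less RNA per cell cannot be told apart.

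Apart from Egr1, the members tested had log2 fold changes from -0.53 at Klf10 to 0.61 at Mapk3. Over the 30 tested, the median log2 fold change was -0.14, against 0.01 over all genes, with 12 values above 0 and 18 below. Negative values thus made up 60.0% of members and 49.2% of all genes tested. The groups did not overlap in 15 of 30 members, against a background of 41.2% of genes in either direction. Of these 15, 4 were higher and 11 lower with the inhibitor, and no background by direction was worked out. An unadjusted p under 0.05 was reached by 2 members, Egr1 and Fosl1, against a background of 12.2% of genes. Reads summed over the 34 members came to 2741 and 2861 normalised reads in DMSO and 2729 and 2817 with the inhibitor, so these sums overlapped between groups. They include the 11 members with an opposite-strand exon, where the source of the reads cannot be told apart. For the 17 members with a base mean of 50 or more, fold changes ran from -0.40 to 0.37 and their 95% intervals lay within -0.83 and 0.65 on the log2 scale. Over the 13 tested members below that mean, standard errors reached 0.47, and changes of the size seen at the more abundant members were not detectable there at this depth.

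**Figure D1:**
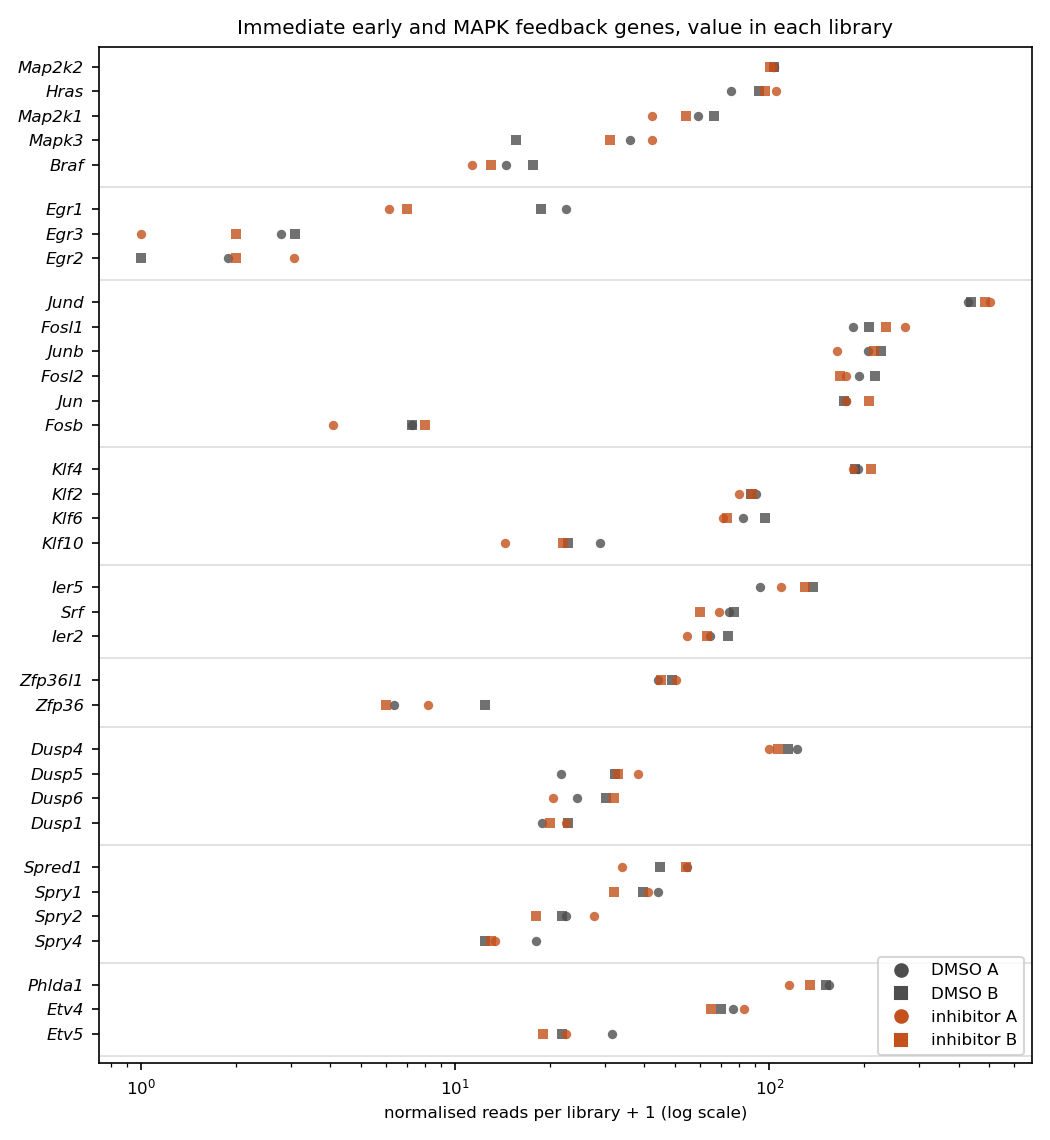
Normalised reads plus 1 (log axis) of the 34 members with values in each of the 4 libraries, ordered by role and then by base mean; grey marks are DMSO, orange marks the inhibitor, circles A and squares B. At Egr1 both inhibitor libraries, at 5.14 and 6.01 normalised reads, lie well below both DMSO libraries, at 21.5 and 17.7, while at most other genes the marks lie close together or overlap.

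Relative to exon length, most members were given more reads than the median gene. Which strand was counted is not stated, so these values need not rank the transcripts. Their median was 15.8 normalised reads per kilobase of exon, against 4.96 over all genes with values, and 24 of the 34 lay above the median base mean. Jund was the highest of them at 277 reads per kilobase, followed by Fosl1 at 109.8, Junb at 87.7, Klf4 at 63.2, Phlda1 at 62.5 and Jun at 57.1. All of these but Klf4 have an opposite-strand exon. Egr1 had 2.81 reads per kilobase, at the 36.6th percentile of genes with values, and Egr2 and Egr3 were the lowest members at 0.291 and 0.277.

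Of the kinases, none of 5 was called. HRAS is the small GTPase at the head of the cascade, BRAF a RAF kinase, MAP2K1 and MAP2K2 are the MEK kinases and MAPK3 is ERK1. Map2k2 had 102 normalised reads in each DMSO library and 102 and 99.1 in inhibitor A and B, so its log2 fold change was -0.03 ± 0.17 (SE). Hras had 74.5 and 91.9 in DMSO and 104 and 96.1 with the inhibitor (limma, adjusted p = 0.593; log2 fold change 0.27 ± 0.18). Map2k1 had 58.3 and 65.8 in DMSO and 41.2 and 53.1 with the inhibitor (limma, adjusted p = 0.475; log2 fold change -0.40 ± 0.22). The groups did not overlap at these 3 genes, higher with the inhibitor at Hras and lower at Map2k1, while at Map2k2 all libraries were nearly equal. Braf, which shares 146 bp with Ndufb2, lay between 10.3 and 16.7 normalised reads (limma, adjusted p = 0.791; log2 fold change -0.40 ± 0.43). Mapk3, described by library after its values were seen, had 34.99 and 14.6 in DMSO and 41.2 and 30.05 with the inhibitor, so the groups overlapped. It was not called (limma, adjusted p = 0.486). Its log2 fold change of 0.61 ± 0.30 was 0.01 without DMSO B and 1.21 without DMSO A.

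EGR1 is a zinc finger factor and one of the first transcripts made when ERK is activated. Egr1 (ENSMUSG00000038418, GRCm38 chromosome 18, 34859823 to 34864984, plus strand) held 24 and 17 reads in DMSO A and B and 5 and 6 in inhibitor A and B. In normalised reads these were 21.5 and 17.7 in DMSO and 5.14 and 6.01 with the inhibitor, so both inhibitor libraries were low and the groups did not overlap. Means were 19.6 ± 2.68 in DMSO and 5.58 ± 0.612 with the inhibitor (SD, n = 2), a 3.52-fold higher mean in DMSO. The log2 fold change was -1.65 ± 0.47, with a 95% interval from -2.58 to -0.71 (limma, adjusted p = 0.0292). No opposite-strand exon is annotated at Egr1, but with the counted strand not stated its reads need not be of its own transcript. In the authors' deposited table its log2 fold change is -1.82 with an unadjusted p of 0.0209 (DESeq2) and no adjusted p.

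The Egr1 call depended on the fit and on single libraries. It was lost in limma without the abundance minimum (adjusted p = 0.226), with 1 prior variance for all genes (adjusted p = 0.313), and without DMSO A (adjusted p = 0.247), inhibitor A (adjusted p = 0.267) or inhibitor B (adjusted p = 0.197). Without DMSO B it was kept, close to the threshold (limma, adjusted p = 0.0496). The other members of the family were too low to test. Egr2, known for its part in myelination and hindbrain patterning, was given 1 and 0 reads in the DMSO libraries A and B and 2 and 1 in those of the inhibitor. Egr3, a relative induced alongside Egr1, was given 2 reads in each DMSO library and 0 and 1 with the inhibitor. At counts this low no difference was detectable.

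**Figure D2:**
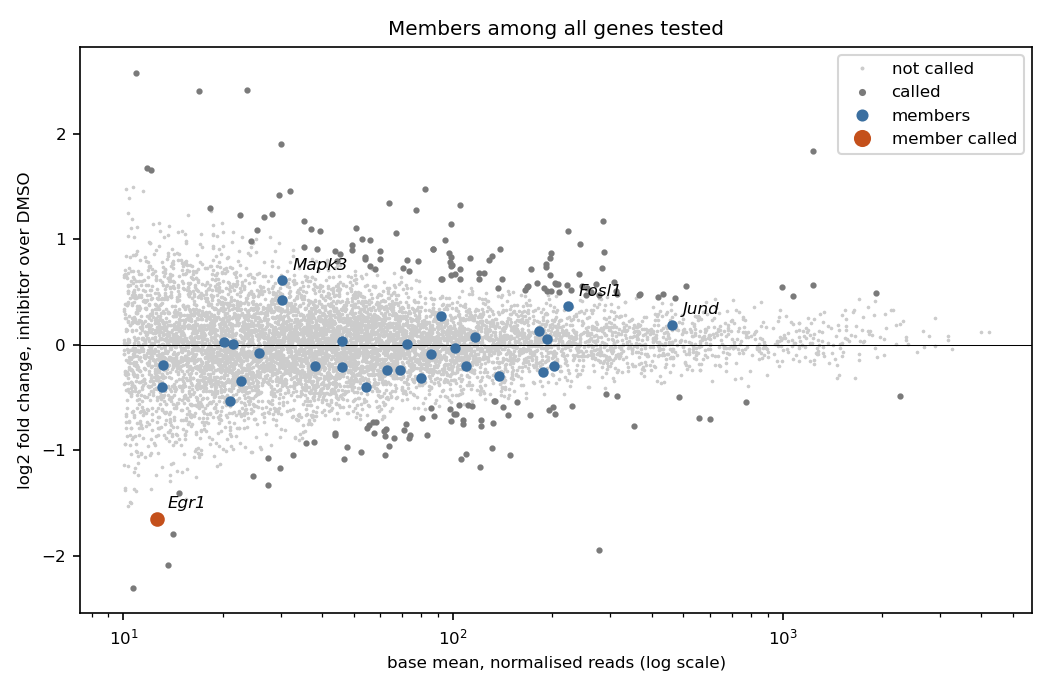
Log2 fold change (inhibitor over DMSO) against base mean (log axis) for all genes tested; light dots are genes not called, dark dots called genes, blue circles members and the orange circle Egr1, the member called. Egr1 lies at -1.65 with a base mean of 12.6, near the abundance minimum of 10. The 17 members with a base mean of 50 or more lie between -0.40 and 0.37.

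AP-1 is a dimer of a JUN protein with a FOS or another JUN protein. Of the 6 members with values, 5 were tested and 0 called. Jund, whose product is the JUN protein most often kept at a steady level in resting cells, had 426 and 436 normalised reads in DMSO and 501 and 485 with the inhibitor. Both inhibitor libraries were above both DMSO libraries, but the log2 fold change of 0.19 ± 0.13 was not called (limma, adjusted p = 0.613), and 877 bp of its exons lie opposite Gm11175. Fosl1, which encodes FRA-1, an AP-1 subunit stabilised by ERK and linked to invasive growth, had 183 and 207 in DMSO and 269 and 234 with the inhibitor. The groups did not overlap and the inhibitor libraries were the higher. Its log2 fold change was 0.37 ± 0.14, with a 95% interval from 0.08 to 0.65; the unadjusted p was 0.011 and the adjusted p 0.203 (limma). In the authors' deposited table its unadjusted p is 0.0694 (DESeq2).

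Of the Fosl1 exon length, 1163 of 2033 bp lie opposite Ccdc85b. Ccdc85b itself was given 105 and 132 reads in DMSO and 84 and 97 with the inhibitor (limma, adjusted p = 0.457; log2 fold change -0.31 ± 0.17). Fosl2, which encodes the related FRA-2 and has no opposite-strand exon, had 192 and 216 normalised reads in DMSO and 174 and 167 with the inhibitor. Its groups did not overlap, with the inhibitor libraries lower, and a fold change of -0.25 ± 0.15 on the log2 scale was not called (limma, adjusted p = 0.496). The pair of FRA genes thus lay on opposite sides of 0, neither called. Jun, the classical partner of FOS, ranged from 172 to 206 normalised reads and Junb, a JUN protein of weaker activating power, from 163 to 225, and both overlapped between groups. Their log2 fold changes were 0.13 ± 0.15 and -0.20 ± 0.15. Jun shares 232 bp with Junos and Junb 173 bp with Prdx2. Fosb was under the minimum, at 3.09 to 7.01 normalised reads.

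KLF factors bind GC-rich promoters, and KLF2, KLF4, KLF6 and KLF10 are induced early by serum, shear stress or TGF-beta, depending on the gene. None of the 4 was called and none has an opposite-strand exon. Klf4, best known as a reprogramming factor and a factor of differentiating gut epithelium, had 191 and 186 normalised reads in DMSO and 184 and 209 with the inhibitor, which overlapped (log2 fold change 0.06 ± 0.15). Klf2, a factor of quiescent endothelium and T cells, had 89.7 and 86.6 in DMSO and 79.2 and 87.1 with the inhibitor, which also overlapped (log2 fold change -0.08 ± 0.18). Klf6, a growth-restraining factor, had 81.6 and 96.0 in DMSO and 70.0 and 72.1 with the inhibitor. Both inhibitor libraries were lower there, but the log2 fold change of -0.31 ± 0.19 was not called (limma, adjusted p = 0.515). Klf10, the TGF-beta-inducible early gene, lay between 13.4 and 27.8 normalised reads (limma, adjusted p = 0.593; log2 fold change -0.53 ± 0.34).

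SRF is the factor that occupies the CArG box, and IER2 and IER5 are small nuclear products of immediate early genes. None of these 3 was called, and none has an opposite-strand exon. Srf had 73.6 and 76.2 normalised reads in DMSO and 67.9 and 59.1 with the inhibitor (limma, adjusted p = 0.718; log2 fold change -0.24 ± 0.20). Ier2 had 63.7 and 73.1 in DMSO and 53.5 and 62.1 with the inhibitor (limma, adjusted p = 0.727; log2 fold change -0.24 ± 0.20). At both genes the inhibitor libraries were lower without overlap. Ier5 had 92.4 and 137 in DMSO and 108 and 129 with the inhibitor, so the inhibitor libraries lay between the DMSO libraries (log2 fold change 0.07 ± 0.17).

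The CArG box was looked for in promoter windows of 300 bases from RefSeq (GRCm38.p6), which run from upstream of a gene's start into its transcript. Windows were matched for 25 of the 35 members, and Mapk3, Egr1, Egr3, Fosl1, Klf10, Ier2, Dusp4, Spry4, Etv4 and Phlda1 were not searched. Both strands were searched. A box was found in 4 of the 25, Srf, Dusp5, Egr2 and Zfp36, and in 1.81% of the 27025 genes with a window. A match describes these letters and is not a measured binding site. Of the other motifs searched, TGACGTCA, the cyclic AMP response element, was found at Braf and Dusp1 (2 of 25 members; 2.03% of genes). The AP-1 motif TGACTCA (5.95% of genes) and the EGR motif GCGTGGGCG (0.707% of genes) were found in 0 of these members' windows. The called member, Egr1, is among those not searched, so the boxes cannot be set against the call. The sequences are shown because these are the searched members with a match to the element that SRF binds, 5′ to 3′ on the gene's strand, with the boxes in capitals. Srf and Dusp5 are given as whole windows (chr17:46556113-46556412, minus strand, and chr19:53528895-53529194, plus strand). Egr2 and Zfp36 are given as the box with its flanks (chr10:67537787-67537816, plus strand, and chr7:28379267-28379296, minus strand).
Srf: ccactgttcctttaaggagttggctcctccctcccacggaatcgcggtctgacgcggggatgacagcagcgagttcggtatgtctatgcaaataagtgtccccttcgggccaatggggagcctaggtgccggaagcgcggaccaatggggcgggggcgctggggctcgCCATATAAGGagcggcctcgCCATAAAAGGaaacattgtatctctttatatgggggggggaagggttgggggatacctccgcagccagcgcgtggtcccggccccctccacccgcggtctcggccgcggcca
Dusp5: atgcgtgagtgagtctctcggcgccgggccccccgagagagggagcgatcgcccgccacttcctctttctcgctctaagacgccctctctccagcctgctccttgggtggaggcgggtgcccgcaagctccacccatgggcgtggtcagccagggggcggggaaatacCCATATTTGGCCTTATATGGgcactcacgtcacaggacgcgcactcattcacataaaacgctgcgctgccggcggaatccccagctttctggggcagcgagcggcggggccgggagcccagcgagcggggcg
Egr2: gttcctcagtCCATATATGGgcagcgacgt
Zfp36: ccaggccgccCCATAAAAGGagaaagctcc
In Srf the boxes begin 82 and 62 bases before the start of the transcript, and in Dusp5 they adjoin each other and begin 82 and 72 bases before it. The Zfp36 box begins 58 bases before the start. A box was also found in the window of another listed start of Egr2.

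ZFP36 and ZFP36L1 bind AU-rich elements and speed the decay of short-lived mRNAs, immediate early ones among them. Zfp36l1 had 43.1 and 48.0 normalised reads in DMSO and 49.4 and 44.1 with the inhibitor, which overlapped (limma, adjusted p = 0.978; log2 fold change 0.04 ± 0.23). Of its exons, 1672 bp lie opposite Gm26669. Zfp36, which shares 125 bp with Gm44710, was under the minimum, with 5.38 and 11.5 in DMSO and 7.20 and 5.01 with the inhibitor.

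DUSP proteins remove the activating phosphates from MAP kinases; DUSP6 acts on ERK in the cytoplasm, DUSP5 on ERK in the nucleus, and DUSP1 and DUSP4 are nuclear phosphatases with wider substrates. None of the 4 was called, and their median log2 fold change was -0.02. Dusp4, by base mean the highest of them, had 121 and 114 normalised reads in DMSO and 98.8 and 105 with the inhibitor. Both inhibitor libraries were lower, by 0.20 ± 0.17 on a log2 scale, and the gene was not called (limma, adjusted p = 0.711). Dusp5, whose exons share 547 bp with AC137853.2, had 20.6 and 31.3 in DMSO and 37.0 and 32.0 with the inhibitor. There the inhibitor libraries were higher, with inhibitor B close to DMSO B (limma, adjusted p = 0.627; log2 fold change 0.42 ± 0.29). Dusp6, a transcript often used as a readout of ERK activity, lay between 19.5 and 31.0 normalised reads (log2 fold change -0.08 ± 0.31, 95% interval from -0.69 to 0.53). Dusp1, of which 11 bp lie opposite Ergic1, lay between 17.9 and 21.9 (log2 fold change 0.03 ± 0.34, 95% interval from -0.65 to 0.71). Both overlapped between groups.

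Sprouty proteins and SPRED1 restrain signalling from receptors to RAS and RAF, and SPRED1 does so by bringing neurofibromin to RAS. None of the 4 was called and the groups overlapped at each. Spred1 had 53.8 and 43.8 normalised reads in DMSO and 32.9 and 53.1 with the inhibitor (log2 fold change -0.21 ± 0.24). Spry1, which shares 710 bp with Gm42922, had 43.1 and 38.6 in DMSO and 40.1 and 31.0 with the inhibitor (log2 fold change -0.20 ± 0.25). Spry2 lay between 17.0 and 26.7 (0.01 ± 0.33 on the log2 scale) and Spry4 between 11.5 and 17.0 (-0.19 ± 0.43). The median log2 fold change of the 4 genes was -0.20.

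ETV4 and ETV5 are ETS factors whose transcripts follow ERK activity, and PHLDA1 is a pleckstrin-like protein encoded by a gene of the same transcriptional response. None of the 3 was called. Phlda1 had 153 and 150.3 normalised reads in DMSO and 114 and 133 with the inhibitor. Both inhibitor libraries were lower, with a log2 fold change of -0.30 ± 0.16 and a 95% interval from -0.61 to 0.02 (limma, adjusted p = 0.444), and 727 bp of its exons lie opposite Gm28592. Etv4 had 75.4 and 68.9 in DMSO and 82.3 and 64.1 with the inhibitor, so the inhibitor libraries lay outside the DMSO libraries on both sides (log2 fold change 0.01 ± 0.19). Etv5 lay between 18.03 and 30.5 (log2 fold change -0.34 ± 0.33).

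**Figure D3:**
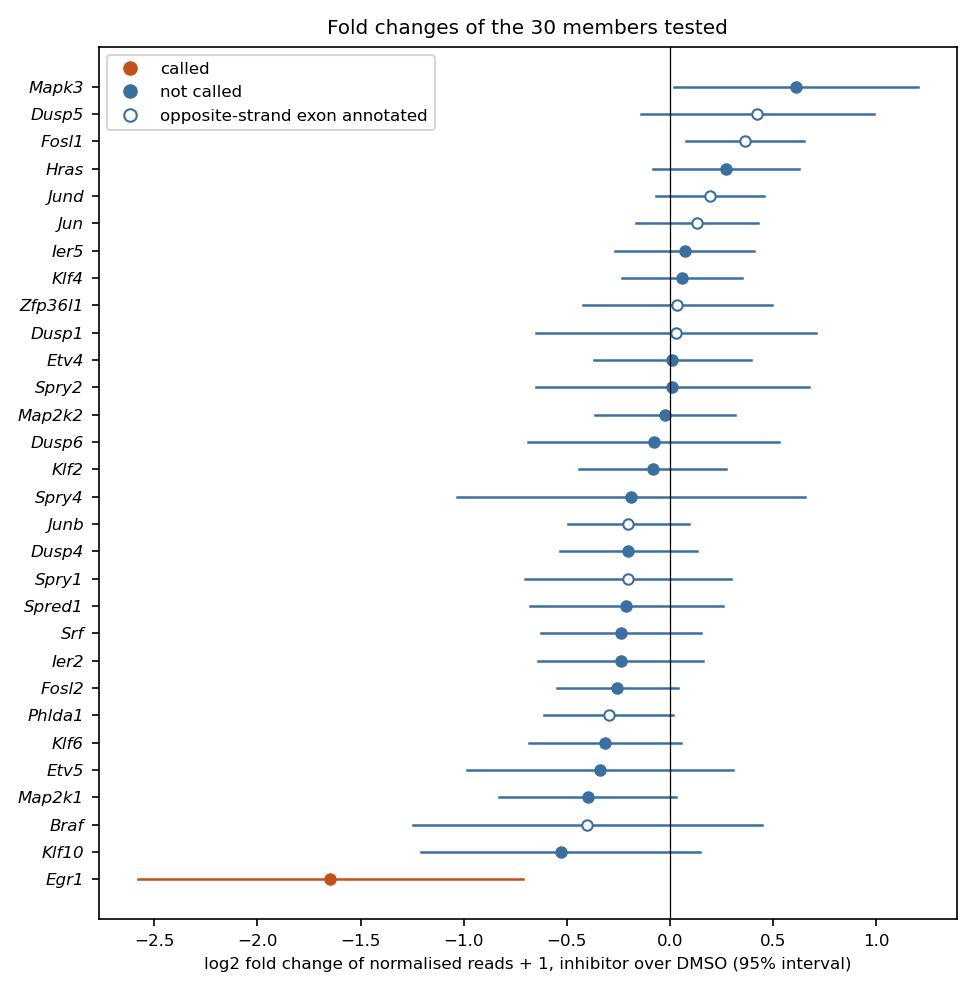
Log2 fold change of normalised reads plus 1, inhibitor over DMSO, with 95% intervals for the 30 members tested, sorted by value; orange is the called member, blue the others, and open circles mark an annotated opposite-strand exon. Egr1 at -1.65 stands apart from the rest, which run from -0.53 at Klf10 to 0.61 at Mapk3.

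The intervals in the plot of members' fold changes are not adjusted for the number of genes. Those of Egr1, Fosl1 and Mapk3 leave out 0, and the last overlapped between groups. The intervals come from normalised reads and the p-values from the deposited log2 values, so they can disagree. At Mapk3 the unadjusted p was 0.0792 (limma). Members with an opposite-strand exon had a median log2 fold change of 0.03 (10 genes, 6 above 0 and 4 below), and those without had -0.19 (20 genes, 6 above 0 and 14 below). The difference between these sets was not tested.

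The rest of the pathway was followed in 6 lists of 139 further genes, of which 126 had values and 105 were tested. In all, 1 was higher, 3 were lower and 101 were not called, with 52 log2 fold changes above 0, 53 below and a median of -0.01. The background shares over all genes tested, 1.3% higher and 0.841% lower, apply here and to each list. All 4 called genes were growth factor ligands, the signals at the top of the cascade. The lists were chosen with earlier results of these data known, so the list in which the calls fall is no separate evidence. In the authors' deposited table Pdgfa alone of the 4 passed, and Hbegf has no adjusted p there.

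Of the 13 ligands and receptors tested, 3 were lower and 1 higher, and the list's median log2 fold change was 0.13. Hbegf, a membrane-anchored ligand of the EGF receptor and itself an early target of ERK, had 44.0 and 38.6 normalised reads in DMSO and 14.4 and 22.0 with the inhibitor. Both inhibitor libraries were low, and on the log2 scale the gene fell by 1.16 ± 0.30 (limma, adjusted p = 0.0131). Its groups did not overlap and it has no opposite-strand exon. In limma the call was lost without DMSO A (adjusted p = 0.146) or inhibitor A (adjusted p = 0.326), without the abundance minimum (adjusted p = 0.205) and with 1 prior variance (adjusted p = 0.153).

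Fgf7, the keratinocyte growth factor, had 138 and 168 normalised reads in DMSO and 84.4 and 94.1 with the inhibitor. It fell by 0.77 ± 0.17 on the log2 scale without overlap (limma, adjusted p = 0.00131), and has no opposite-strand exon. The call was lost without inhibitor A (limma, adjusted p = 0.125), without the minimum (limma, adjusted p = 0.122) and in the authors' deposited table (DESeq2, adjusted p = 0.249). Fgf2, basic fibroblast growth factor, had 85.2 and 132 in DMSO and 53.5 and 63.1 with the inhibitor. It fell by 0.85 ± 0.19 on the log2 scale, also without overlap (limma, adjusted p = 0.00162). Of its exons, 640 bp lie opposite Nudt6. The Fgf2 call was lost in limma without DMSO B (adjusted p = 0.268), inhibitor A (adjusted p = 0.119) or the minimum (adjusted p = 0.244), with 1 prior variance (adjusted p = 0.149), and in the authors' deposited table (DESeq2, adjusted p = 0.377).

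Pdgfa, a chain of platelet-derived growth factor, had 131 and 153 normalised reads in DMSO and 265 and 238 with the inhibitor. It rose by 0.82 ± 0.15 on the log2 scale without overlap (limma, adjusted p = 2.4e-05; DESeq2 in the authors' deposited table, adjusted p = 0.0239), and 813 bp of its exons lie opposite 6330403L08Rik. Without the minimum it narrowly missed the threshold (limma, adjusted p = 0.0536). Egfr, the receptor of HBEGF, is named after its values were seen. It had 35.9 and 53.2 in DMSO and 27.8 and 19.0 with the inhibitor, lower in both inhibitor libraries, but was not called (limma, adjusted p = 0.0613; log2 fold change -0.90 ± 0.28). Without DMSO A it was called (limma, adjusted p = 0.0189; log2 fold change -1.18), and without DMSO B, inhibitor A or inhibitor B it was not (limma, adjusted p = 0.523, 0.114 and 0.505; log2 fold change -0.62, -1.16 and -0.64).

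**Figure D4:**
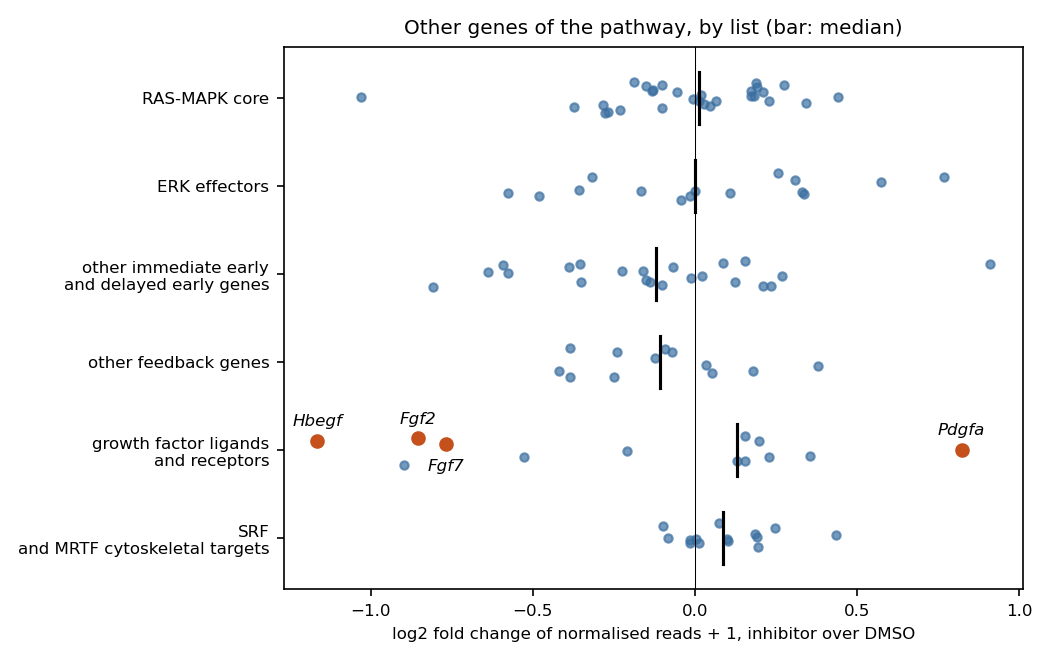
Log2 fold change of normalised reads plus 1, inhibitor over DMSO, of each tested gene in the 6 further lists; points are genes, spread vertically for legibility, black bars are list medians and orange points are called genes. The 4 called genes, Hbegf, Fgf2 and Fgf7 below 0 and Pdgfa above, are all in the list of ligands and receptors.

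In the other 5 lists 0 genes were called by limma and 0 in the authors' deposited table. An unadjusted p under 0.05 (limma) was reached by 1 of 29 core genes, 2 of 15 effectors and 5 of 22 other early genes. The same held for 3 of 12 feedback genes and 1 of 14 cytoskeletal genes, against a background of 12.2% of all genes tested. The RAS-MAPK core list holds other RAS proteins, exchange factors, adaptors and kinases, and 29 of its genes were tested (median log2 fold change 0.01). Its smallest p-values were those of Sos2, a RAS exchange factor, and Lztr1, which targets RAS proteins for degradation. Sos2 had 29.6 and 15.7 normalised reads in DMSO and 16.5 and 6.01 with the inhibitor, which overlapped (limma, adjusted p = 0.222; log2 fold change -1.03 ± 0.41). Single libraries moved that fold change: it was -0.59 without DMSO A, -1.47 without DMSO B, -1.69 without inhibitor A and -0.37 without inhibitor B (limma, adjusted p = 0.835, 0.0480, 0.177 and 0.862). Lztr1 had 127 and 167 in DMSO and 128 and 113 with the inhibitor, also overlapping (limma, adjusted p = 0.488; log2 fold change -0.28 ± 0.16). Among 15 ERK effectors (median 0.00), Ets2, an ETS factor phosphorylated by ERK, had 59.2 and 74.1 in DMSO and 38.1 and 51.1 with the inhibitor. It was lower without overlap but not called (limma, adjusted p = 0.193; log2 fold change -0.58 ± 0.22). Creb1, the cyclic AMP response factor that the ERK-activated RSK and MSK kinases phosphorylate, had 9.87 and 12.5 in DMSO and 17.5 and 22.0 with the inhibitor, higher without overlap and not called (limma, adjusted p = 0.409; log2 fold change 0.77 ± 0.40).

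Among 22 other immediate early and delayed early genes, 8 had log2 fold changes above 0 and 14 below, with a median of -0.12. Trib1, a pseudokinase that binds MEK, had 48.4 and 31.3 normalised reads in DMSO and 22.6 and 21.0 with the inhibitor. It was lower without overlap and not called (limma, adjusted p = 0.116; log2 fold change -0.81 ± 0.29). The Trib1 fold change was -0.50 without DMSO A (limma, adjusted p = 0.687), -1.12 without DMSO B (limma, adjusted p = 0.0248), and -0.86 and -0.76 without inhibitor A and B (limma, adjusted p = 0.350 and 0.429). Mafk, a small MAF factor opposite Tmem184a, had 53.8 and 62.6 in DMSO and 39.1 and 38.1 with the inhibitor, also lower without overlap and not called (limma, adjusted p = 0.219; log2 fold change -0.58 ± 0.23). Among 12 other feedback genes the median was -0.11. Errfi1, whose product MIG6 blocks the EGF receptor kinase, had 183 and 187 in DMSO and 150.2 and 133 with the inhibitor, lower without overlap and not called (limma, adjusted p = 0.210; log2 fold change -0.38 ± 0.15). Dusp9, another ERK phosphatase, had 73.6 and 87.7 in DMSO and 99.8 and 110.2 with the inhibitor, higher without overlap and not called (limma, adjusted p = 0.346; log2 fold change 0.38 ± 0.18).

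The last list holds cytoskeletal genes that SRF drives with its partner MRTF, a branch of SRF signalling that follows actin and not ERK. Of 14 tested, 10 log2 fold changes were above 0 and 4 below, with a median of 0.09. Zyx, a focal adhesion protein opposite Epha1, had 108 and 104 normalised reads in DMSO and 135 and 153 with the inhibitor (limma, adjusted p = 0.165; log2 fold change 0.44 ± 0.16). Tpm1, a tropomyosin of actin filaments with no opposite-strand exon, had 669 and 719 in DMSO and 836 and 812 with the inhibitor (limma, adjusted p = 0.442; log2 fold change 0.25 ± 0.13). Both were higher with the inhibitor without overlap, and neither was called.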

How the data were processed

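Poly(A) RNA of 2 DMSO and 2 inhibitor libraries was prepared with a stranded mRNA kit, per the labels' protocols. Per the submitters' processing notes, HISAT2 2.1.0, SAMtools 1.2, StringTie 1.3.0, DESeq2 and the build mm10 were used; the program that counted reads, and on which strand, is not stated in these sources. The authors deposited 1 table with log2 values per library, headed logCPM per the file headers, whose antilogs average near the base mean and whose differences shrink at low counts. Per the file headers it also holds the authors' DESeq2 results: the base mean (a signal: counts over size factors, averaged), log2 fold change, Wald score, p-value and adjusted p-value.

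Whole reads were worked back from the base means (15 significant digits). The 10 lowest gave starting size factors, which were refined by least squares over genes of low base mean with a single solution. The refined factors were 1.11 and 0.958 for DMSO A and B and 0.972 and 0.999 for inhibitor A and B. Of 12578 genes, 12566 had a single solution; the other 12, none of them a member, were left without reads. The deposited log2 values and fold changes set the search windows. Group ratios then differed from the deposited log2 fold changes by a median of 0.00155, which those windows make no independent check. Reads divided by size factors are called normalised reads, and means ± SD are of these (n = 2).

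Calls come from limma 3.58.1 in R 4.3.3 with a mean-variance trend on the deposited log2 values, group as the only term, base mean of at least 10, two-sided, Benjamini-Hochberg adjusted. The prior had 182 degrees of freedom against 2 residual, so calls rest mostly on the spread common to all genes. Log2 fold changes, standard errors and 95% intervals come from limma on log2 of normalised reads plus a pseudocount of 1 (8550 genes), which understates changes of low genes. The script was tested on simulated data. Opposite-strand exons are from GENCODE M21 (GRCm38), matched for 12570 genes.

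Alternatives were no minimum, a base mean of at least 50, pseudocounts of 1 and 4, voom with either scaling, the authors' own deposited calls, 1 prior variance, a replicate block and leaving out each library. Members and lists were chosen with earlier results of these data known. Named by library are members called, with an unadjusted p under 0.05, or not overlapping at a mean of at least 50 normalised reads, and at least the 2 most abundant of each role; of the lists, called genes or the 2 with the smallest p.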

Additional observations from a re-analysis of the deposited data

How the results depend on the processing

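Calls were far fewer in some settings. Over all genes 183 were called, against 16 without the abundance minimum, 26 in the authors' deposited table (DESeq2), 77 with 1 prior variance for all genes, and 63 to 233 on leaving out 1 library, the fewest without inhibitor A. The 1 member called, Egr1, made way for 0 without the minimum, at a base mean of at least 50 (where Egr1 was not tested), in the authors' deposited table, and with 1 prior variance; leaving out 1 library gave 0 to 1. The 4 calls in the pathway lists became 0 without the minimum, 1 in the authors' deposited table, 2 with 1 prior variance, and 1 to 5 on leaving out 1 library. Fits that leave a group with 1 library assume that it varies like the other group. The median log2 fold change of the members, -0.14, was -0.085 over the 17 members with a base mean of at least 50, -0.18 in voom scaled by library totals, and -0.15 to -0.092 on leaving out 1 library. Values near 0 changed sign: Spry2 and Etv4 stood at -0.033 and -0.029 in voom with library totals. On leaving out 1 library, log2 fold changes ran from -0.033 to 0.15 at Klf4, -0.21 to 0.35 at Ier5, -0.044 to 0.12 at Zfp36l1, -0.11 to 0.17 at Dusp1, -0.40 to 0.24 at Dusp6, -0.30 to 0.32 at Spry2, -0.45 to 0.079 at Spry4, -0.55 to 0.13 at Spred1 and -0.17 to 0.19 at Etv4. The cause of these shifts was not tested. Over 45 named genes and 13 settings there were 550 values, and 35 pairs of gene and setting gave none (no adjusted p in the authors' table, or a base mean under 50). Of these values 511 kept their direction and side of the threshold, 17 changed sign, 18 lost a call and 4 gained one. Fold changes equal the main ones without the minimum, at a base mean of at least 50 and with a pseudocount of 1. The same holds with 1 prior variance and with a replicate block, so no sign could change in these settings. Most named genes were not called to begin with, so the 511 overstates how stable the results are.

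With the column letter as a replicate block, 227 genes were called over all, 1 member (Egr1, limma, adjusted p = 0.0183) and 5 genes of the lists, Egfr being the added one (limma, adjusted p = 0.0403). Libraries of the same letter deviated together only weakly (correlation 0.085), and the letters are not tied to the labels' replicate numbers, so the libraries were not treated as paired.

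Depth limits what the low members can show: the 13 tested members with a base mean under 50 had standard errors from 0.23 to 0.47, and Egr1 rests on 5 to 24 reads per library.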
